A study of Mus musculus with 25 samples.

Results

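Collagens, the enzymes that modify and crosslink them, and the proteins of the basement membrane make up much of the scaffold around fat cells. The genes described here were a list of 42 from this scaffold, taken by gene symbol, and 40 of the 42 were measured among 22180 genes with a single symbol. For Loxl2 and Fbn1 the array had no transcript cluster (the set of probes that stands for a gene) with that symbol alone, and both were not analysed here. The 40 genes were read in 6 groups: 6 fibrillar collagen chains, 4 other collagens that sit on fibrils or form networks, 15 basement membrane genes, 8 genes of chaperones and of modifying and crosslinking enzymes, 4 genes of fibronectin and elastic fibres, and 3 genes of small proteoglycans rich in leucine.

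The tissue was gonadal white fat of male mice, 1 mouse per array, on Mouse Gene 2.0 ST arrays. Every mouse was a heterozygous apoE3L.CETP animal, which carries transgenes for the APOE*3-Leiden variant and for human CETP, so that its lipoproteins resemble human ones, and the controls carried them too. Mice ate a low-fat diet (LFD, 10% fat and 70% carbohydrate) or a high-fat diet with cholesterol (HFD, 60% fat, 20% carbohydrate and 0.25% cholesterol) from the age of 12 weeks. Tissue was taken after 4 weeks (4 LFD and 3 HFD arrays), 8 weeks (4 and 4) and 12 weeks (4 and 4), at label ages of 16, 20 and 34 weeks, and from 2 mice on chow at 12 weeks of age. The last label age exceeds the start plus the time on diet, so time on diet is used.

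All 9 measured adipocyte markers were well above the median gene level of 5.76 (log2), with means over the arrays from 9.21 (Slc2a4) to 13.57 (Fabp4). Transcripts of other tissues stood out in some arrays. The mean of 20 hepatocyte genes ranged from 9.67 to 11.42 in 11 arrays (2 of the 8-week LFD group and 3 of each other group at 8 and 12 weeks) and was at most 7.94 in the remaining 14. The mean of 12 epididymis genes was 11.55 in chow array 1, 9.81 in HFD array 1 at 4 weeks and 5.27 in LFD array 1 at 4 weeks, and at most 3.96 elsewhere. Array values are given below in the order of the array numbers, and differences are log2 differences, HFD minus LFD unless stated, ± the standard error from limma.

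Fibrillar collagens assemble from procollagen chains into the fibres that bear tension, and lysyl oxidases then bond neighbouring molecules to each other. Before secretion, prolyl and lysyl hydroxylases modify the chains, and the chaperone HSP47 holds the triple helix. Basement membranes are thin sheets of laminin and type IV collagen, joined by nidogen and perlecan, and in fat they surround each adipocyte and each vessel. Fat tissue that expands on a rich diet is known to build more of this matrix.

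At 12 weeks 5 of 6 fibrillar chains and 2 of 4 other collagens were called higher under HFD than under LFD. The same held for 2 of 8 modifying and crosslinking genes and 2 of 3 small proteoglycans. It held for 0 of 4 fibronectin and elastic fibre genes and 0 of 15 basement membrane genes. Below, rose and fell mean higher and lower under HFD than under LFD, unless stated otherwise. The differences between these groups of genes were not tested. In all, limma called 11 of the 40 genes higher and 0 lower after Benjamini-Hochberg adjustment over all genes (adjusted p under 0.05), where 3.13% of all genes were called higher and 1.33% lower. Without the 3 arrays with epididymis transcripts 19 of the 40 were called at 12 weeks, 3 of the 15 basement membrane genes among them, against 8.41% of all genes in either direction. In a bulk sample fewer cells of a type and less RNA per cell cannot be told apart, and the same holds for more of either.

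At 4 weeks 1 gene of the 40 was called higher (Col18a1) against 0.189% of all genes, and at 8 weeks 2 were (Col12a1 and Col14a1) against 1.17%. Called lower were 0 of 40 at both times, against 0.0225% and 1.24% of all genes. An unadjusted p under 0.05 was reached by 18, 14 and 25 of the 40 at 4, 8 and 12 weeks, against 9.33%, 13.7% and 16.1% of all genes. Averaged over the 3 times with equal weights, 22 were called higher and 0 lower, against 6.03% and 4.44% of all genes. The average sums the same arrays as the single times and is no separate evidence. The difference was positive at all 3 times in 27 of the 40 genes and negative at all 3 in 4 genes. The matching shares of all genes are not given. The plot of diet differences by role shows these values for each gene.

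**Figure D1:**
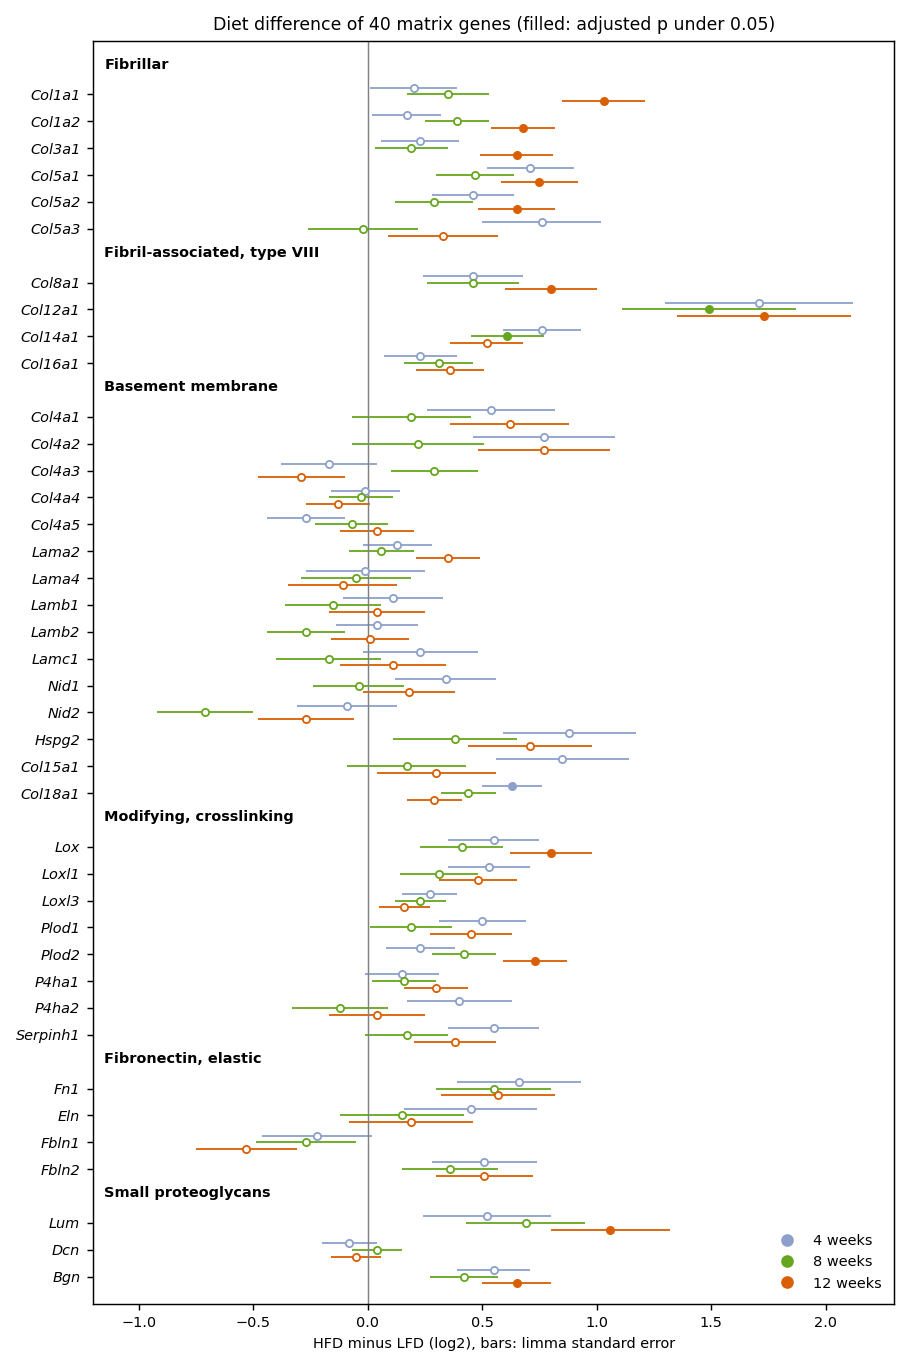
Log2 difference HFD minus LFD (horizontal axis) for the 40 measured genes, listed by role, at 4 weeks (blue), 8 weeks (green) and 12 weeks (orange), with limma's standard error as bars. Filled points had an adjusted p under 0.05. The 11 filled points at 12 weeks lie in the fibrillar, fibril-associated, modifying and proteoglycan groups, and the 4 laminin genes Lama4, Lamb1, Lamb2 and Lamc1 lie near 0 throughout.

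Fibrillar chains were higher under HFD at 12 weeks in 5 of 6 cases, with a median difference of 0.67 over the 6 against −0.01 over all genes. The medians were 0.34 at 4 weeks and 0.32 at 8 weeks, with no chain called at either time. Col1a1 encodes the main chain of type I collagen. On chow Col1a1 read 10.29 and 10.12, and under LFD it read 9.98, 10.11, 10.59 and 9.80 at 4 weeks, 9.74, 9.75, 10.06 and 9.86 at 8 weeks and 9.27, 9.50, 9.45 and 9.13 at 12 weeks. Under HFD it read 10.26, 10.21 and 10.49 at 4 weeks, 10.82, 9.92, 10.08 and 10.01 at 8 weeks and 10.54, 10.07, 10.51 and 10.34 at 12 weeks. The LFD arrays at 12 weeks were the 4 lowest of the 25, and the HFD arrays at 12 weeks lay within the range of the earlier HFD arrays. The groups overlapped at 4 and 8 weeks and were apart at 12 weeks. The difference was 0.20 ± 0.19 at 4 weeks (limma adjusted p = 0.8), 0.35 ± 0.18 at 8 weeks (limma adjusted p = 0.389) and 1.03 ± 0.18 at 12 weeks (limma adjusted p = 0.00166), or 2.04-fold with a 95% interval of 1.57 to 2.64. Without HFD array 1 at 8 weeks, the highest of the 25, the 8-week difference of Col1a1 was 0.15, and at 4 weeks single arrays left out gave 0.09 to 0.36.

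Col3a1 encodes type III collagen, which forms thin fibres with type I. Col3a1 read 10.23 and 11.06 on chow and 10.75, 11.07, 11.24 and 10.77 at 4 weeks, 10.76, 10.81, 10.90 and 10.90 at 8 weeks and 10.44, 10.49, 10.39 and 10.10 at 12 weeks under LFD. Under HFD the values of Col3a1 were 11.12, 11.08 and 11.36 at 4 weeks, 11.33, 10.74, 10.87 and 11.20 at 8 weeks and 11.13, 10.86, 10.90 and 11.13 at 12 weeks. Here too the 12-week LFD arrays lay below every HFD array, and at the earlier times the diets overlapped. The 8-week difference of 0.19 ± 0.16 was 0.09 without HFD array 1. Col3a1 rose by 0.65 ± 0.16 at 12 weeks (limma adjusted p = 0.0194). The partner chain Col1a2 rose by 0.68 ± 0.14 at 12 weeks, and its second cluster, which the test did not use, gave 0.92.

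Col5a1 and Col5a2, chains of type V collagen, which sets the width of fibrils, rose by 0.75 ± 0.17 and 0.65 ± 0.17 at 12 weeks. Both were also apart between the diets at 4 weeks, at 0.71 ± 0.19 and 0.46 ± 0.18, without passing the test. For Col5a1 the second cluster differed by 0.27 at 12 weeks. The third type V chain, Col5a3, was not called. Col5a3 read 7.43 and 8.41 on chow and 7.47, 8.59, 8.92 and 8.53 at 4 weeks, 8.54, 8.69, 8.44 and 9.14 at 8 weeks and 8.13, 8.42, 8.29 and 8.57 at 12 weeks under LFD. Under HFD Col5a3 read 8.87, 9.29 and 9.25 at 4 weeks, 8.79, 8.49, 8.61 and 8.82 at 8 weeks and 8.57, 8.69, 8.53 and 8.95 at 12 weeks. The diets overlapped at each time, and LFD array 1 at 4 weeks was more than 1 unit below the rest of its group. The differences of Col5a3 were 0.76 ± 0.26, −0.02 ± 0.24 and 0.33 ± 0.24, and none passed the test. Without that LFD array the first was 0.46.

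Promoter sequences are printed for 3 of the fibrillar chains that rose at 12 weeks and, as a contrast, for a laminin chain that did not pass the test at any time. Each is the 250 bases before the annotated start in RefSeq (GRCm38.p6), read 5′ to 3′ on the gene's strand, with matches to the CCAAT box (CCAAT), the TATA box (TATAAA) and the GC box (GGGCGG), on either strand, in capitals.
Col1a2 (chr6:4505368-4505617, plus strand): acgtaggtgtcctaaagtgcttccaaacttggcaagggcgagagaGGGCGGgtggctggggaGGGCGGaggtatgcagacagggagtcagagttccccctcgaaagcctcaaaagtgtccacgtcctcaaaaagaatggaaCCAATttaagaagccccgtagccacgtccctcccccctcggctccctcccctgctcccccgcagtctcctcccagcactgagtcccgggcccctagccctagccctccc
Col3a1 (chr1:45311288-45311537, plus strand): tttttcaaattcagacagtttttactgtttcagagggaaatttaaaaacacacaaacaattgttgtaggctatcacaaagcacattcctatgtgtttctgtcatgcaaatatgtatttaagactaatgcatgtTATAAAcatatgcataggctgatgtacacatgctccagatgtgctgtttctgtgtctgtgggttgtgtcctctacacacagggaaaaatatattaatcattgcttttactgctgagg
Col5a1 (chr2:27886175-27886424, plus strand): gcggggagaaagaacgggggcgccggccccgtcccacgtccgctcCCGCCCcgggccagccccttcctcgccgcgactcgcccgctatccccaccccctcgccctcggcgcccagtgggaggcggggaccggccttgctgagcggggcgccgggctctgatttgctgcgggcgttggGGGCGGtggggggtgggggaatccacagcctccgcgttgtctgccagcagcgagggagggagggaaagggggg
Lamb1 (chr12:31265043-31265292, plus strand): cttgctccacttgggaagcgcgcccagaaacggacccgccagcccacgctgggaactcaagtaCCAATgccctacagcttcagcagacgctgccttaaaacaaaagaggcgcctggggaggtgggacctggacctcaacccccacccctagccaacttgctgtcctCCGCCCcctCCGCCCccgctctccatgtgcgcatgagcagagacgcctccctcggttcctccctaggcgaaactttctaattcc

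No motif occurred in all 3 fibrillar promoters. Col1a2 had 1 CCAAT box, 109 bases before the start, and 2 GC boxes, Col3a1 had 1 TATA box, 117 bases before the start, and Col5a1 had 2 GC boxes alone. Lamb1 had 1 CCAAT box, 187 bases before the start, and 2 GC boxes, the same motifs as Col1a2. RefSeq's table held 25 of the 42 listed genes. Of these windows 9 held a CCAAT box, 2 a TATA box and 18 a GC box, where 33.8%, 12.4% and 32.7% of the 32851 promoter windows in the table did. A match describes letters and says nothing of which factor binds. The windows of Col4a1 and Col4a2, which lie head to head, share 78 bases in that table.

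The other collagens include the largest difference of the list. Col12a1 encodes a collagen that attaches to the surface of type I fibrils. On chow it read 8.06 and 5.11, the widest gap of the 40 genes between these 2 arrays, and under LFD 5.22, 6.16, 5.72 and 5.35 at 4 weeks, 5.36, 5.75, 5.69 and 6.20 at 8 weeks and 5.78, 5.90, 5.97 and 6.25 at 12 weeks. Under HFD Col12a1 read 7.51, 6.85 and 7.62 at 4 weeks, 7.61, 7.02, 6.89 and 7.45 at 8 weeks and 7.83, 7.55, 7.98 and 7.47 at 12 weeks. At each time every HFD array was above every LFD array. The difference was 1.71 ± 0.41 at 4 weeks (limma adjusted p = 0.101), 1.49 ± 0.38 at 8 weeks (limma adjusted p = 0.0405) and 1.73 ± 0.38 at 12 weeks (limma adjusted p = 0.00938). Averaged over the times it was 3.13-fold, with a 95% interval of 2.25 to 4.36.

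Col14a1, a related fibril-associated chain, rose by 0.61 ± 0.16 at 8 weeks (limma adjusted p = 0.0453). Its diets were also apart at 4 weeks (0.76 ± 0.17) and 12 weeks (0.52 ± 0.16), without passing the test. The 8-week calls depended on single arrays: 7 of 8 single arrays, left out in turn, ended the call of Col12a1, and 7 of 8 that of Col14a1, with differences of 1.36 to 1.64 and 0.49 to 0.74. Without HFD array 1, the array with the highest macrophage mean (10.14), they were 1.37 and 0.49. Col8a1, a short-chain network collagen of vessels, rose by 0.80 ± 0.20 at 12 weeks. Col16a1 was at 0.36 ± 0.15 and passed the test in the average over times (0.30 ± 0.09), a call lost without any of 8 of the 23 diet arrays.

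The basement membrane genes differed among themselves. The type IV chains Col4a1 and Col4a2, perlecan (Hspg2) and the related collagens Col15a1 and Col18a1 had positive differences at all 3 times. The 4 laminin chains Lama4, Lamb1, Lamb2 and Lamc1 were between −0.27 and 0.23 at every time, and none passed the test. Over all 15 genes the median difference was 0.13, −0.03 and 0.11 at 4, 8 and 12 weeks. In the average over times 3 of the 15 rose, Hspg2 (0.66 ± 0.16), Col4a2 (0.58 ± 0.17) and Col18a1 (0.45 ± 0.07), where 6.03% of all genes did. The call of Col4a2 was lost with median centring (0.59) and without HFD array 2 or 3 of 4 weeks or HFD array 1 of 8 weeks (0.58, 0.55 and 0.56).

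Col4a1 and Col4a2 encode the 2 chains of the common type IV collagen network. Col4a1 read 8.76 and 10.27 on chow and 8.92, 10.28, 10.33 and 10.14 at 4 weeks, 10.17, 10.03, 10.07 and 10.06 at 8 weeks and 9.88, 9.84, 9.67 and 9.72 at 12 weeks under LFD. Under HFD Col4a1 read 10.19, 10.56 and 10.61 at 4 weeks, 10.40, 10.07, 10.23 and 10.39 at 8 weeks and 10.56, 10.30, 10.32 and 10.43 at 12 weeks. The diets were apart at 12 weeks, by 0.62 ± 0.26 (limma adjusted p = 0.212). LFD array 1 at 4 weeks stood more than 1 unit below its group, and chow array 1 was the lowest of all. The 4-week difference of Col4a1 was 0.54, and 0.20 without that LFD array.

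Col4a2 read 8.45 and 9.69 on chow and 8.02, 9.83, 9.91 and 9.67 at 4 weeks, 9.70, 9.85, 9.77 and 9.83 at 8 weeks and 9.55, 9.39, 9.32 and 9.29 at 12 weeks under LFD. Under HFD it read 9.85, 10.16 and 10.36 at 4 weeks, 10.25, 9.82, 10.04 and 9.93 at 8 weeks and 10.20, 10.08, 10.17 and 10.16 at 12 weeks. The 12-week groups were again apart, by 0.77 ± 0.29 (limma adjusted p = 0.159), and LFD array 1 at 4 weeks was the lowest value of all. At 4 weeks the difference of Col4a2 was 0.77, and 0.32 without that array. Both low arrays, chow array 1 and LFD array 1 at 4 weeks, were among the 3 with epididymis transcripts, and they enter the shared estimate of the spread. Without those 3 arrays Col4a1, Col4a2 and Hspg2 were called at 12 weeks (0.62 ± 0.09, 0.76 ± 0.10 and 0.71 ± 0.11, limma adjusted p = 0.000359, 0.000166 and 0.000533), as 3 of the 15 basement membrane genes, with all-gene calls at 8.41%. None of those 3 arrays is from 12 weeks, so the 12-week differences could not change except by rounding, and only the spread could. The standard error of Col4a1 went from 0.26 to 0.09. In that fit none of the laminin chains was called at 12 weeks.

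Col18a1, whose end fragment is endostatin, was the gene of the list called at 4 weeks. On chow it read 7.17 and 7.06, and under LFD 7.05, 7.68, 7.62 and 7.45 at 4 weeks, 7.54, 7.50, 7.42 and 7.41 at 8 weeks and 7.65, 7.77, 7.45 and 7.59 at 12 weeks. Under HFD Col18a1 read 8.06, 7.91 and 8.27 at 4 weeks, 7.70, 8.01, 7.88 and 8.04 at 8 weeks and 7.82, 7.92, 8.07 and 7.83 at 12 weeks. The diets were apart at each time, by 0.63 ± 0.13 at 4 weeks (limma adjusted p = 0.0467), 0.44 ± 0.12 at 8 weeks (limma adjusted p = 0.0589) and 0.29 ± 0.12 at 12 weeks (limma adjusted p = 0.215). The 4-week call was lost without 6 of the 7 single arrays of that time and without the 3 arrays with epididymis transcripts, where Col12a1 was the 1 gene of the 40 called. Without LFD array 1, where Col18a1 was lowest, the difference was 0.50.

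Col15a1 encodes the related collagen that ties basement membranes to fibres. Col15a1 read 7.96 and 8.84 on chow and 7.91, 9.71, 9.70 and 9.51 at 4 weeks, 9.50, 9.48, 9.47 and 9.66 at 8 weeks and 9.21, 9.27, 9.55 and 9.55 at 12 weeks under LFD. Under HFD Col15a1 read 9.98, 10.05 and 10.15 at 4 weeks, 9.70, 9.47, 9.87 and 9.74 at 8 weeks and 9.63, 9.80, 9.72 and 9.65 at 12 weeks. The groups were apart at 4 and 12 weeks and overlapped at 8 weeks, and the low value was once more LFD array 1 at 4 weeks. The 4-week difference of 0.85 ± 0.29 was 0.42 without that array, and neither passed the test. For all 15 basement membrane genes the 4-week median was 0.13 with that array and −0.01 without it.

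Of the remaining basement membrane genes, Nid2, a nidogen that bridges laminin and type IV collagen, was lower in every HFD array than in every LFD array at 8 weeks (−0.71 ± 0.21, limma adjusted p = 0.0734) and was not called. Without the 3 arrays with epididymis transcripts it passed the test at 8 weeks (−0.71 ± 0.17, limma adjusted p = 0.017). Lamb2 was also lower in every HFD array at 8 weeks (−0.27 ± 0.17). The other nidogen, Nid1, was at 0.18 ± 0.20 at 12 weeks, and its second cluster, which the test did not use, gave 0.29. Lama2, the laminin chain of muscle, was at 0.35 ± 0.14 at 12 weeks. The chains Col4a3, Col4a4 and Col4a5, which form the type IV network of the kidney filter, had means of 4.99, 5.36 and 6.39 over the arrays. The median gene level was 5.76. Their 12-week differences were −0.29 ± 0.19, −0.13 ± 0.14 and 0.04 ± 0.16. None passed the test.

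**Figure D2:**
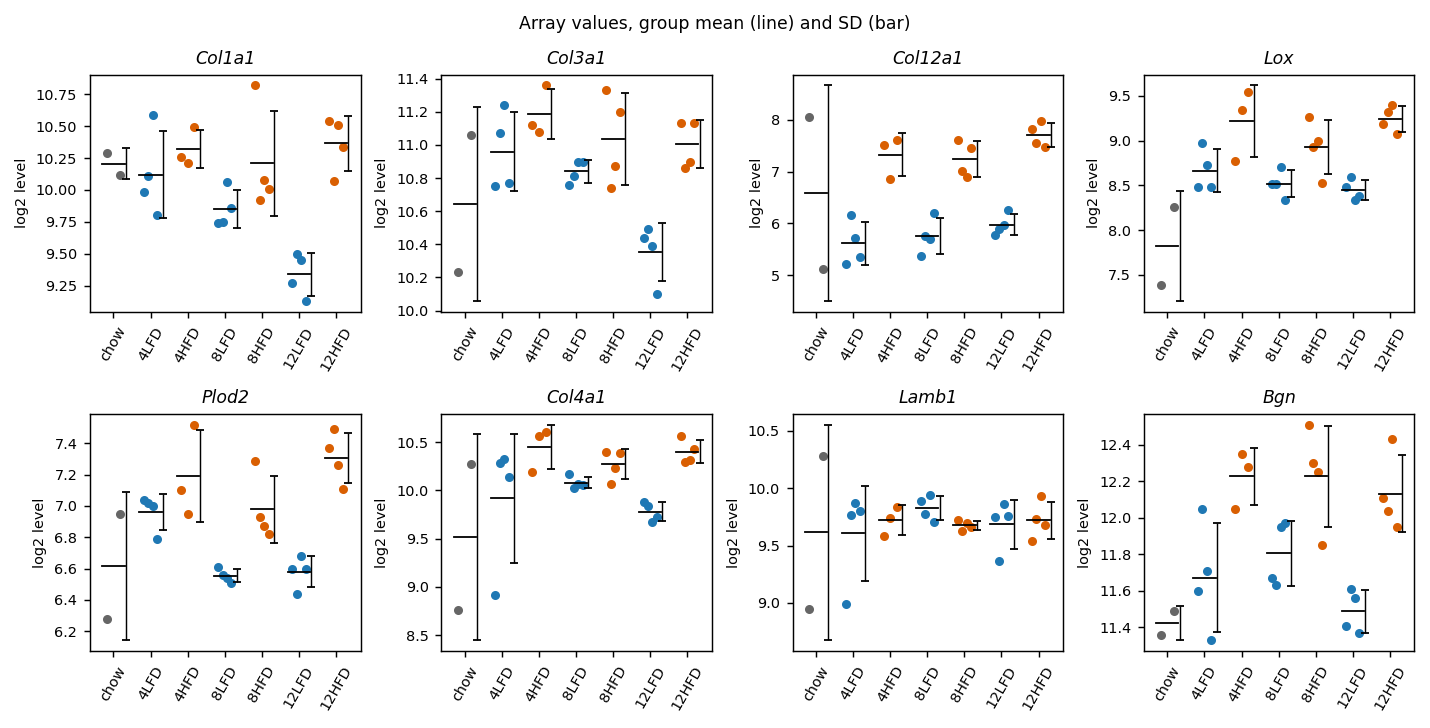
Array values (log2, vertical axis) of 8 genes in each group (horizontal axis), with 1 point per mouse, the group mean as a line and the SD as a bar; grey is chow, blue LFD and orange HFD. Col1a1 and Col3a1 are lowest as a group in the 12-week LFD arrays, Col12a1 is apart at every time, Lamb1 overlaps at every time, and single low points of chow and 4-week LFD stand out for Col4a1 and Lamb1.

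Crosslinking and modifying genes were positive in all 8 cases at 12 weeks, with a median of 0.42 against −0.01 over all genes. Of the 8, 2 were called at 12 weeks, where 3.13% of all genes were called higher. Without the 3 arrays with epididymis transcripts 4 of the 8 were called higher then, against 8.41% of all genes in either direction. In the average over times 6 of the 8 rose, where 6.03% of all genes did. Lox encodes lysyl oxidase, which starts the bonds between collagen molecules. Lox read 7.39 and 8.26 on chow and 8.48, 8.97, 8.73 and 8.48 at 4 weeks, 8.51, 8.52, 8.71 and 8.34 at 8 weeks and 8.48, 8.59, 8.34 and 8.38 at 12 weeks under LFD. Under HFD Lox read 8.77, 9.34 and 9.54 at 4 weeks, 9.26, 8.93, 9.0 and 8.53 at 8 weeks and 9.19, 9.32, 9.40 and 9.07 at 12 weeks. The diets were apart at 12 weeks and overlapped before. The difference was 0.55 ± 0.20, 0.41 ± 0.18 and 0.80 ± 0.18 at 4, 8 and 12 weeks, and the last passed the test (limma adjusted p = 0.0125).

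Plod2, the lysyl hydroxylase that acts on the ends of collagen chains and so steers the type of bond, was called as well. Plod2 read 6.28 and 6.95 on chow and 7.04, 7.02, 7.00 and 6.79 at 4 weeks, 6.61, 6.56, 6.54 and 6.51 at 8 weeks and 6.60, 6.44, 6.68 and 6.60 at 12 weeks under LFD. Under HFD Plod2 read 7.10, 6.95 and 7.52 at 4 weeks, 7.29, 6.93, 6.87 and 6.82 at 8 weeks and 7.37, 7.49, 7.26 and 7.11 at 12 weeks. Every HFD array exceeded every LFD array at 8 and 12 weeks. The difference was 0.23 ± 0.15, 0.42 ± 0.14 and 0.73 ± 0.14, and Plod2 was called at 12 weeks (limma adjusted p = 0.00335).

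Serpinh1 encodes the collagen chaperone HSP47. Serpinh1 read 7.65 and 8.46 on chow, its 2 lowest values but for LFD array 1 at 4 weeks, and 8.32, 9.07, 9.23 and 9.07 at 4 weeks, 9.38, 9.22, 9.33 and 9.72 at 8 weeks and 8.83, 8.89, 9.17 and 9.34 at 12 weeks under LFD. Under HFD Serpinh1 read 9.45, 9.25 and 9.71 at 4 weeks, 9.64, 9.52, 9.68 and 9.50 at 8 weeks and 9.41, 9.58, 9.40 and 9.37 at 12 weeks. The diets were apart at 4 and 12 weeks, at 0.55 ± 0.20 and 0.38 ± 0.18, and neither passed the test. Without LFD array 1 the 4-week difference was 0.35. The average over times passed (0.37 ± 0.11, limma adjusted p = 0.0306), a call lost with median centring and when any of 8 of the 23 diet arrays was left out. Loxl1, Loxl3 and Plod1 also rose in the average, by 0.44 ± 0.10, 0.22 ± 0.06 and 0.38 ± 0.11. The call of Loxl3 was lost with median centring and without any of 6 of the 23 arrays, and that of Plod1 without HFD array 3 of 4 weeks (0.35). The prolyl hydroxylase chains P4ha1 (0.20 ± 0.09) and P4ha2 (0.11 ± 0.13) were not called.

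Among fibronectin and elastic fibre genes, 0 of 4 passed the test at a single time in the main fit. Without the 3 arrays with epididymis transcripts 1 of 4 was called higher at 8 weeks and 2 of 4 at 12 weeks. All-gene calls were then 5.64% and 8.41% in either direction. Fn1 encodes fibronectin, the fibre on which collagen is first laid down. Fn1 read 9.90 and 11.35 on chow and 10.38, 11.63, 11.46 and 11.34 at 4 weeks, 11.58, 11.54, 11.52 and 11.41 at 8 weeks and 11.50, 11.73, 11.50 and 11.43 at 12 weeks under LFD. Under HFD Fn1 read 11.76, 11.87 and 11.95 at 4 weeks, 12.24, 12.00, 11.83 and 12.17 at 8 weeks and 11.88, 11.96, 12.00 and 12.59 at 12 weeks. Every HFD array was above every LFD array at each time. The differences were 0.66 ± 0.27, 0.55 ± 0.25 and 0.57 ± 0.25 (limma adjusted p = 0.425, 0.317 and 0.245), and the average passed the test (0.59 ± 0.15, limma adjusted p = 0.00992). Without LFD array 1 at 4 weeks the 4-week difference of Fn1 was 0.38.

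Eln encodes elastin. Eln read 7.77 and 8.75 on chow and 7.71, 8.31, 8.84 and 7.72 at 4 weeks, 7.96, 7.81, 8.64 and 7.66 at 8 weeks and 7.23, 7.53, 7.79 and 7.68 at 12 weeks under LFD. Under HFD Eln read 8.12, 8.72 and 8.93 at 4 weeks, 8.59, 8.07, 8.25 and 7.77 at 8 weeks and 7.53, 8.09, 7.72 and 7.64 at 12 weeks. The diets overlapped at every time, with differences of 0.45 ± 0.29, 0.15 ± 0.27 and 0.19 ± 0.27. Fbln2, a fibulin of elastic fibres and basement membranes, rose in the average (0.46 ± 0.13), though not without HFD array 3 of 4 weeks (0.43), whereas Fbln1 was negative at each time, down to −0.53 ± 0.22 at 12 weeks, and was not called.

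Of the small proteoglycans, which bind collagen fibrils, Bgn (biglycan) and Lum (lumican) rose at 12 weeks. Bgn read 11.36 and 11.49 on chow and 11.60, 12.05, 11.71 and 11.33 at 4 weeks, 11.67, 11.63, 11.95 and 11.97 at 8 weeks and 11.41, 11.61, 11.56 and 11.37 at 12 weeks under LFD. Under HFD Bgn read 12.05, 12.35 and 12.28 at 4 weeks, 12.51, 12.30, 12.25 and 11.85 at 8 weeks and 12.11, 12.04, 12.43 and 11.95 at 12 weeks. The groups were apart at 12 weeks, with 0.65 ± 0.15 (limma adjusted p = 0.0136), and Bgn's second cluster gave 0.72. Lum rose by 1.06 ± 0.26 (limma adjusted p = 0.0183). Dcn (decorin) was at −0.05 ± 0.11, with arrays between 12.61 and 12.97 at 12 weeks.

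Whether the groups were apart was also counted without the model. Every HFD array lay above every LFD array for 11 of the 40 genes at 4 weeks, 10 at 8 weeks and 22 at 12 weeks, against 4.68%, 5.01% and 7.52% of all genes. Lying below were 0, 2 and 0 of the 40, against 4.41%, 6.42% and 5.08%. At 12 weeks the 22 held 5 of the 6 fibrillar chains, 5 of the 15 basement membrane genes and 6 of the 8 modifying and crosslinking genes.

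The 12-week calls differed in how far they rested on single arrays. Col1a1, Col1a2, Col5a1, Col12a1, Lox and Plod2 kept an adjusted p under 0.05 whichever of the 8 arrays was left out. Lum lost it without HFD array 1 (0.90) or LFD array 1 (0.96), and Bgn without HFD array 3 (0.55). Col3a1 lost it without HFD array 1 (0.61), HFD array 4 (0.61) or LFD array 4 (0.56). Col5a2 lost it without any of 6 arrays, with differences of 0.62 to 0.66 (all but HFD array 3 and LFD array 2), and Col8a1 without any of 5 (HFD arrays 1, 2 and 3 and LFD arrays 1 and 3), with 0.68 to 0.79.

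Hepatocyte transcripts were high in 3 of 4 arrays of each diet at 12 weeks. The hepatocyte mean of these still differed by diet, at 10.67 to 11.42 under LFD and 9.67 to 10.20 under HFD. In the other array of each diet it was 7.94 (LFD) and 5.39 (HFD). Within the high arrays (3 and 3) Col1a1 differed by 1.02, Col12a1 by 1.64, Lox by 0.71 and Plod2 by 0.78. Between the 2 other arrays (1 and 1) these differences were 1.06, 2.01, 1.06 and 0.58. Fitted on the high arrays alone, 13 of the 40 genes were called higher and 0 lower at 12 weeks, against 5.74% of all genes in either direction, and 10 of the 11 calls were among them. At 8 weeks Col1a1 differed by 0.26 within the high arrays (3 and 2) and by 0.86 within the others (1 and 2). The split itself, fitted beside diet and time, was called for 0 of the 40 genes in either direction, against 2.14% of all genes higher and 0.0361% lower, and the members' median was −0.11. Bgn had the lowest adjusted p of the 40 for the split (−0.30 ± 0.10, limma adjusted p = 0.263).

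**Figure D3:**
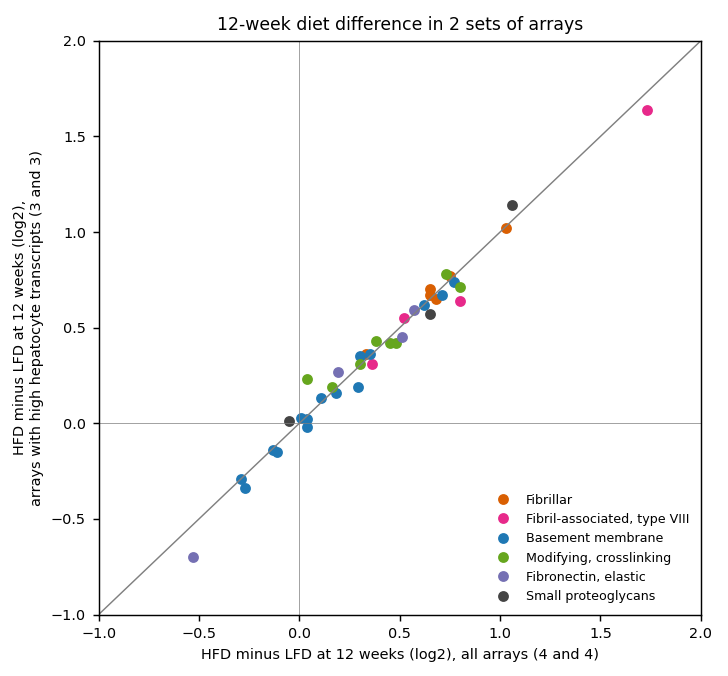
Diet difference at 12 weeks (log2) of each measured gene over all arrays (4 HFD and 4 LFD, horizontal axis) and over the arrays with high hepatocyte transcripts alone (3 and 3, vertical axis), coloured by role, with the line of equality. The 2 sets share arrays. The points lie close to the line, from Fbln1 at the lower left to Col12a1 (1.73 and 1.64) at the upper right.

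The diet differences were then compared between times. The interaction of diet and time was called by limma for 0 of the 40 genes and for 0% of all genes. An unadjusted p under 0.05 was reached by 1 of the 40, against 5.41% of all genes. That gene was Col1a1, with a limma adjusted p of 0.886. The rise in called genes from 4 to 12 weeks is thus not shown to be a change in the diet effect. The 12-week difference exceeded the 8-week difference in 32 of 40 genes and the 4-week difference in 17 of 40. Without the shares of all genes, these counts cannot be said to be particular to the 40.

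Within the LFD groups Col1a1 fell by 0.78 ± 0.18 from 4 to 12 weeks (limma adjusted p = 0.0425), as 1 of the 40 genes, against 0.383% of all genes called lower and 0.298% called higher. Col3a1 was at −0.60 ± 0.16 (limma adjusted p = 0.0757) and Col1a2 at −0.38 ± 0.14. Of the LFD arrays, 0 of 4 at 4 weeks and 3 of 4 at 12 weeks belonged to those with high hepatocyte transcripts, and with that split as a block Col1a1 was at −0.53 (limma adjusted p = 0.302). Its call was also lost without any of 6 of the 8 arrays, with values of −0.63 to −0.84. From 4 to 8 weeks under LFD limma called 0 of the 40, against 0.636% of all genes in either direction, and 5 of the 40 had an unadjusted p under 0.05, against 15.5% of all genes.

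Within the HFD groups limma called 0 of the 40 from 4 to 8 weeks (0% of all genes) and 0 from 4 to 12 weeks (0.573% of all genes). The unadjusted p was under 0.05 for 0 and 2 of the 40, against 8.85% and 11.2% of all genes, the latter being Fbln1 (−0.79 ± 0.24) and Eln (−0.85 ± 0.29). From 4 to 12 weeks under HFD Col1a1, Col1a2 and Col3a1 were at 0.04 ± 0.19, 0.13 ± 0.15 and −0.18 ± 0.17. Group means of Col1a1 under HFD were 10.32 ± 0.15 (SD, n = 3), 10.21 ± 0.41 (n = 4) and 10.37 ± 0.22 (n = 4), and under LFD 10.12 ± 0.34, 9.85 ± 0.15 and 9.34 ± 0.17 (n = 4 each).

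**Figure D4:**
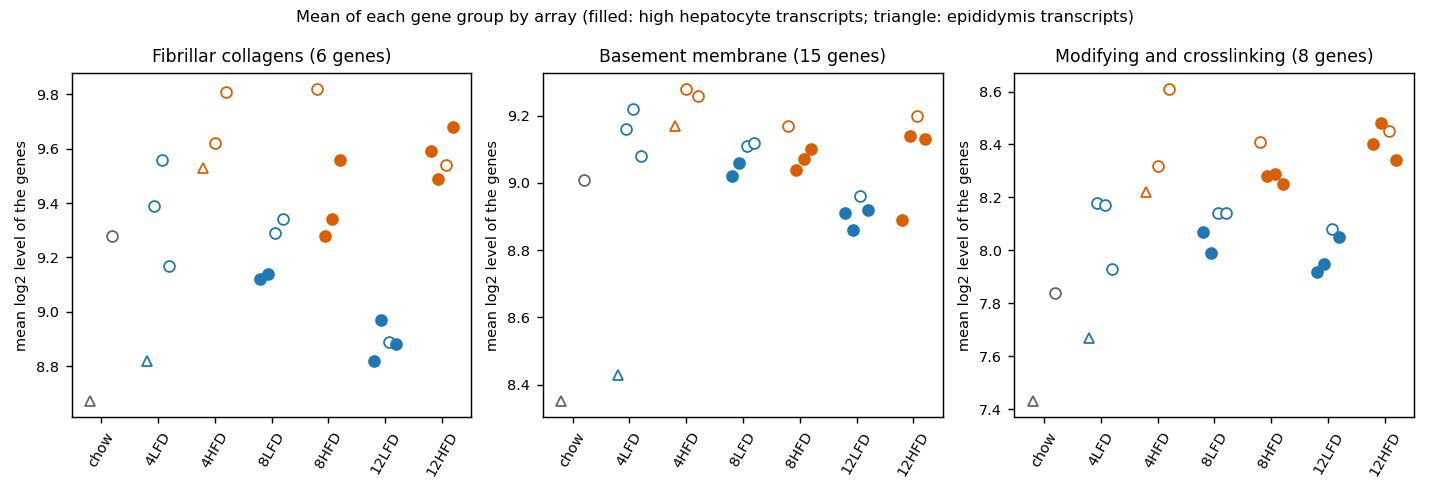
Mean log2 level of the fibrillar, basement membrane and modifying genes (vertical axes) in each array by group (horizontal axis); filled points are arrays with high hepatocyte transcripts and triangles are arrays with epididymis transcripts. At 12 weeks the fibrillar mean is 8.82 to 8.97 under LFD and 9.49 to 9.68 under HFD, whereas the basement membrane mean overlaps (8.86 to 8.96 and 8.89 to 9.20), and chow array 1 and the first 4-week LFD array lie lowest for it.

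Against chow, 7 of the 40 genes were called higher and 2 lower in the mean of the LFD groups (5.8% and 4.82% of all genes), and 21 higher and 2 lower in that of the HFD groups (9.41% and 6.28%). Both comparisons use the same 2 chow arrays. Chow array 1, with epididymis transcripts, was the lower of the 2 in 29 of the 40 genes, so differences are given without it as well. That leaves 1 chow mouse with no spread of its own, so no calls are given for it. Serpinh1 had the smallest p in both, at 1.08 ± 0.20 and 1.44 ± 0.20, and was at 0.67 and 1.04 without chow array 1. Without chow array 1 the LFD differences had a median of −0.01 over the 40 genes, in place of 0.35. The HFD median was then 0.40 in place of 0.70. The LFD count was 18 without the first 4-week LFD array, against 14.3% of all genes. For Col12a1, Col14a1, Col18a1 and Lox, for example, the HFD differences without chow array 1 were 2.32, 1.35, 0.91 and 0.87. With both chow arrays they were 0.84, 1.19, 0.85 and 1.31. For Col1a1, Col1a2 and Col3a1 the HFD differences with both were 0.09 ± 0.19, 0.21 ± 0.15 and 0.43 ± 0.17, and none was called. Col12a1 read 8.06 and 5.11 on chow, and with both arrays it was not called (± 0.42, limma adjusted p = 0.19). The pair called lower, Col4a3 and Col4a4, was highest of all 25 in chow array 1, so both differences rest in part on that array.

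Other genes of matrix assembly, not on the list of 42, were counted alongside. Of 60 measured genes of other collagens, processing enzymes and fibre proteins, 6 rose and 0 fell at 12 weeks (3.13% and 1.33% of all genes), with a median of 0.10, and 16 rose and 1 fell in the average over times (6.03% and 4.44% of all genes). Pcolce2, which enhances the trimming of procollagen, rose at all 3 times (1.15 ± 0.24, 1.33 ± 0.22 and 1.51 ± 0.22), and all 3 differences were called. Col6a1, Col6a2 and Col6a3, chains of the type VI collagen around fat cells, rose by 1.07 ± 0.11, 0.90 ± 0.10 and 0.83 ± 0.09 in the average. The 12-week shares apply to the next 2 lists too. Of 17 matrix receptors, 3 rose at 12 weeks: Mrc2, which takes up collagen for breakdown (1.76 ± 0.28), Cd44, a receptor for hyaluronan (1.48 ± 0.23), and the integrin chain Itgb1 (0.43 ± 0.09). Of 21 regulators and contractile genes, 3 rose at 12 weeks, namely Acta2 (smooth muscle actin, 1.01 ± 0.20), Tgfb1 (0.74 ± 0.17) and its receptor Tgfbr1 (0.52 ± 0.14), and none fell. Acta2 was not among the mural markers counted below.

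Markers of cell types were set beside the collagens, where 3.13% of all genes rose and 1.33% fell at 12 weeks. Of 11 measured fibroblast progenitor markers 0 were called at 12 weeks (median 0.23), and the list mean was 8.99 to 9.31 under LFD and 9.16 to 9.49 under HFD. In the average over times 3 of the 11 rose, against 6.03% of all genes (Mfap5, Thy1 and Fap). Mfap5 was also on the list of other matrix assembly genes. Of 10 endothelial markers 0 were called at any time or in the average, with 12-week means of 9 to 9.22 and 9.04 to 9.39. Of 8 mural markers 1 was lower at 8 weeks (Cspg4) and 0 were called at 12 weeks (8.38 to 8.56 and 8.08 to 8.63). Of 8 mesothelial markers 0 were called, all 8 differences at 12 weeks were negative (median −0.54), and the means were 7.77 to 7.92 and 6.62 to 7.95. Of 9 adipocyte markers 1, Slc2a4, was lower at 8 weeks (−1.08 ± 0.23) and at 12 weeks (limma adjusted p = 0.0122). At 12 weeks 0 of 9 were positive, but the median was −0.02, against −0.01 over all genes. The adipocyte means then were 11.73 to 11.97 and 11.52 to 11.71. Of 10 hepatic stellate markers 1 was lower (Colec10), and the defining marker Lrat was between 3.84 and 6.26 over the 25 arrays. That list includes Dcn (mean 12.78), one of the 40 genes, and the mural marker Rgs5 (mean 11.11). Its list means were 7.11 to 7.56 and 7.00 to 7.25. Of 10 macrophage markers 4 rose at 8 weeks, against 1.17% of all genes, and 8 rose at 12 weeks, when the list mean was 8.35 to 8.89 under LFD and 9.50 to 10.06 under HFD. The part of these cells in the collagen differences was not tested. HFD array 1 at 8 weeks had both the highest macrophage mean of its group (10.14, the others 9.30 to 9.34) and the highest value in 25 of the 40 genes. The share of all genes highest in it is not given. Without that array the fibrillar median at 8 weeks was 0.19 in place of 0.32.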

How the data were processed

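RNA from gonadal fat of 25 mice was hybridised to Affymetrix arrays, and the authors processed the arrays with Transcriptome Analysis Console 4.0.2, per the labels and the series' design text. The deposited values are log2 levels, judged from their range of 1.73 to 14.13; the sources used here do not state how background, summary and normalization were handled. A two-factor variance analysis (diet, time; p under 0.05, fold of at least 1.5) is stated there.

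Of 34472 transcript clusters, 23521 had 1 gene symbol in the platform annotation, 1814 had several and 9137 had no entry. The cluster with the highest mean stood for a gene, which gave 22180 genes; 4 of the 42 listed genes had a second cluster. Array medians were 5.04 to 5.36, pairs of arrays correlated at 0.909 to 0.992, and 0 pairs were identical. limma 3.58.1 in R 4.3.3 fitted 7 group means to all 25 arrays (18 residual degrees of freedom). Its moderated tests were adjusted by Benjamini-Hochberg over all genes within a comparison, with no filter on level. The interaction was a moderated F test. The number of arrays, 2 to 4 a group, limits the precision. The labels call the arrays biological replicates. The script was tested on simulated data.

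The listed genes, their roles, the other lists and the rule for genes given array by array were chosen with earlier results of these data known. That rule took 13 measured genes chosen by name, plus any called with groups apart at 2 or more single times (Col12a1). Of each other pathway list up to 4 called genes with the smallest p were named. Counts of signs, of the order of times and of the highest or lowest array are given without a share over all genes. Alternatives were the compared groups alone, quantile normalization, median centring, a filter on low genes, array weights, the mean of a gene's clusters, robust moderation with an intensity trend, the replicate number as a block, the hepatocyte split as a block, tissue means as covariates, leaving out the 3 arrays with epididymis transcripts, the analysis of variance, and leaving out each array. Using only arrays with high hepatocyte transcripts, and combining their split with leaving out the 3 arrays, were added after seeing the data. Same-numbered arrays of the diets deviated together with correlations from −0.61 to 0.599 over 11 pairs, of which 5 exceeded 0.1, so the numbers were not taken as pairs.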

Additional observations from a re-analysis of the deposited data

Results flagged for a closer look

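In the 14 genes given array by array, each group of 4 arrays was searched for a lowest or highest array whose gap to the next, as a share of the group's range, exceeded Dixon's 95% critical value. That held in 6 of 70 groups of values, where chance gives about 1 in 20. In the 4-week LFD group, array 1 was far below the others for Col4a1 (8.92, the next 10.14), Col4a2 (8.02, the next 9.67) and Col15a1 (7.91, the next 9.51). That array also had epididymis transcripts (mean 5.27), an endothelial marker mean of 8.30 where the other 3 had 9.30 to 9.50, and the lowest value of its group in 28 of the 40 genes; the part of these in its low values was not tested. Array 4 of the same group was low for Plod2 (6.79, the next 7.00). In the 8-week LFD group array 4 was high for Col15a1 (9.66, the next 9.50). In the 12-week HFD group array 4 was high for Fn1 (12.59, the next 12.00).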

How the results depend on the processing

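The alternatives were applied to 11 counts of called genes and to the 69 gene differences called in the main fit. None reversed the sign of a difference, though some, such as robust moderation, cannot change a difference by construction. Each count is over the 40 genes, and the number in brackets is the count over all genes in the same fit. At 4 weeks the count of 1 (47) was 0 (0) with the compared groups alone, 0 (34) with median centring and 0 (65) with the replicate block, 2 (88) with low genes left out, 2 (163) with array weights, 7 (227) with tissue means as covariates, 9 (547) by the analysis of variance with unadjusted p, 2 (68) with adjusted p, and 0 to 1 with single arrays left out. At 8 weeks the count of 2 (533) was 0 (313) with median centring, 4 (765) with low genes left out, 5 (1267) with array weights, 1 (595) with the replicate block, 7 (971) with the covariates, 7 (1251) without the 3 arrays with epididymis transcripts, 4 (842) by the analysis of variance with unadjusted p, 1 (270) with only high hepatocyte arrays, and 0 to 1 with single arrays left out. At 12 weeks the count of 11 (989) was 19 (1787) with array weights, 19 (1865) without the 3 arrays, 20 (2534) with that and the hepatocyte block, 11 (1089) with the replicate block, and 8 to 11 (558 to 944) with single arrays left out. In the average the count of 22 (2322) was 7 (621 and 607) under both forms of the analysis of variance, whose fold limit of 1.5 removes small differences, 25 (2371) with the replicate block, and 16 to 24 (1793 to 2527) with single arrays left out. The interaction count of 0 was 1 (615) by the analysis of variance with unadjusted p. For LFD at 12 against 4 weeks the count of 1 (151) was 0 with the compared groups alone (14), with median centring (119), with the hepatocyte block (19) and with the covariates (24). It was 3 (1335) with array weights and 0 to 1 with single arrays left out. Without the 3 arrays it was 2 (99), neither of them Col1a1, the gene called before. LFD against chow, 9 (2356), gave 3 (747) with the compared groups alone, 0 (10) with array weights, 0 (125) with the covariates, 1 (365) without the 3 arrays, and 0 to 21 (155 to 5026) with single arrays left out. HFD against chow, 23 (3482), gave 1 (75) with array weights, 13 (1309) with the covariates, 11 (1176) without the 3 arrays, and 5 to 30 (811 to 5359) with single arrays left out. Apart from settings whose construction shows why, the cause was not tested. Of the gene-level alternatives, 273 fell short of the threshold with the same sign. Another scaling moved the median of all genes by at most 0.05. The chow group of 2 arrays, 1 with epididymis transcripts, limits every comparison with chow. Fits without either chow array, or without the 3 arrays, leave 1 chow mouse with no spread of its own, so their counts against chow are not given.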
